A study of Mus musculus with 9 samples.

Results

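The comparison described here set clone 1E7, the clone of the mouse pancreatic cancer line Panc02 that is labelled a knockout of VPAC2, against the parental Panc02 line. Its libraries were picked by their titles alone, which gave 3 libraries of 1E7 and 3 of parental, 6 of the 9 libraries of the series. The comparison itself was chosen with earlier results of these data known. All genes except the spike-in controls were compared. The other 3 libraries came from clone 1G2, whose genotype label is wild type after CRISPR, and they entered the statistical fit and are quoted beside some values. Panc02 is a line of ductal adenocarcinoma cells, grown here in DMEM with 10% serum and given no treatment. The parental group is labelled wild type and the 1E7 group VPAC2 knock out, and no other allele or agent is named for either. The labels tie the knockout to 1 clone, so effects of losing VPAC2 and other differences between this clone and the parental line cannot be told apart. The labels also do not say that the replicates came from separate cultures, so each p-value measures the spread between these libraries, which may be technical.

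VPAC2, the product of Vipr2, is a receptor on the cell surface for vasoactive intestinal peptide (VIP) and for the related peptide PACAP. On binding either peptide it acts through the stimulatory G protein Gs to raise cyclic AMP, which activates protein kinase A and, through the transcription factor CREB, genes that carry the cyclic AMP response element. Receptors of this class are switched off by phosphorylation and by arrestins. In the pancreas VIP is known as a peptide of nerves that drives ductal secretion, and receptors for it are studied in pancreatic tumours for their part in growth and in the response of immune cells.

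Between 32907269 and 51878289 reads were counted on genes in the 6 libraries. Levels are printed as CPM, counts scaled to library size, in the order of replicates 1, 2 and 3. They compare 1 gene across libraries and not genes with each other. Genes of simple epithelium were present in every library of the comparison: Krt8 stood at 424 to 978 CPM in parental and 710.2 to 1033 CPM in 1E7, and Krt19 at 84.5 to 172 and 49.96 to 182 CPM. Epcam was low, at 6.88, 7.04 and 3.53 CPM in parental and 1.02, 3.43 and 0.746 CPM in 1E7. Parental 3 stood apart, with 18.01% of its counts on genes related to ribosomal RNA against 0.736% to 1.44% in the other 8 libraries, and 1E7 2 lay closer to parental than 1E7 1 and 3 did at many genes. In the column names of the deposited table, parental 1 and 1E7 1 bear the same date, parental 2 and 1E7 2 bear different dates, and replicate 3 of each group bears the word NSG in place of a date. What the dates and the word stand for is not stated. Since 1 library could decide a call, each call is given with the number of leave-one-out fits, of 9, that kept it. Each of these fits left out another of the 9 libraries.

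Transcripts of the edited gene were rare. Reads on Vipr2 (chromosome 12, 116077726 to 116146261) numbered 6, 3 and 12 in parental, against 1, 2 and 1 in 1E7. The pooled level was 0.193 CPM in parental and 0.0329 CPM in 1E7, and the exact 95% intervals for counting error (0.119 to 0.295 and 0.00896 to 0.0842) did not overlap. Against the spread between libraries the difference did not pass: edgeR's quasi-likelihood test gave a log2 fold change of -2.45 ± 0.93 (± standard error, n = 3 per group) and an adjusted p of 0.155. Its adjusted p lay between 0.102 and 0.376 over the leave-one-out fits. Edited transcripts can still be made and counted, so these reads do not check the edit. Vip, the gene of the ligand, was hit by 5, 1 and 19 reads in parental and by 0 in each 1E7 library, where a count of 0 allows up to 3. Of the remaining receptors, ligands and partners, Ramp1 and Ramp3, whose products associate with receptors of this class, were high enough to test. Ramp1 stood at 13.7, 19.7 and 10.2 CPM in parental and 18.8, 18.1 and 17.5 CPM in 1E7 (adjusted p = 0.589), and Ramp3 at 8.31, 8.70 and 5.64 CPM in parental against 8.62, 7.16 and 3.97 CPM in 1E7 (adjusted p = 0.851). By edgeR 0 of the 3 tested genes of the system were called, 1 had an unadjusted p below 0.05, and DESeq2 called 0.

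Across all genes, 854 of 15766 tested differed between 1E7 and parental at an adjusted p of at most 0.05, which is 5.42%. Of these, 401 were higher in 1E7 (2.54% of all tested) and 453 were lower (2.87%). The median log2 fold change was 1.06 among the higher genes and -0.96 among the lower genes. With a term for the date or word in the column names, chosen after seeing the data, 815 higher and 1040 lower genes were called, and these held 295 of the 401 and 334 of the 453. There were 38 higher and 50 lower genes past a log2 fold change of 3 in size. All called genes showed no overlap between the 3 libraries of each group, and so did 34.4% of all genes tested. The median log2 fold change of all genes tested was -0.03. Below, values with ± are log2 fold changes of 1E7 against parental with their SE, and a gene that rose or changed by a value did so on the log2 scale. By kind of gene, 803 of 12605 protein-coding genes were called (6.37%), against 11 of 446 long intergenic RNA genes (2.47%), 21 of 645 antisense genes (3.26%) and 4 of 555 processed pseudogenes (0.721%).

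**Figure D1:**
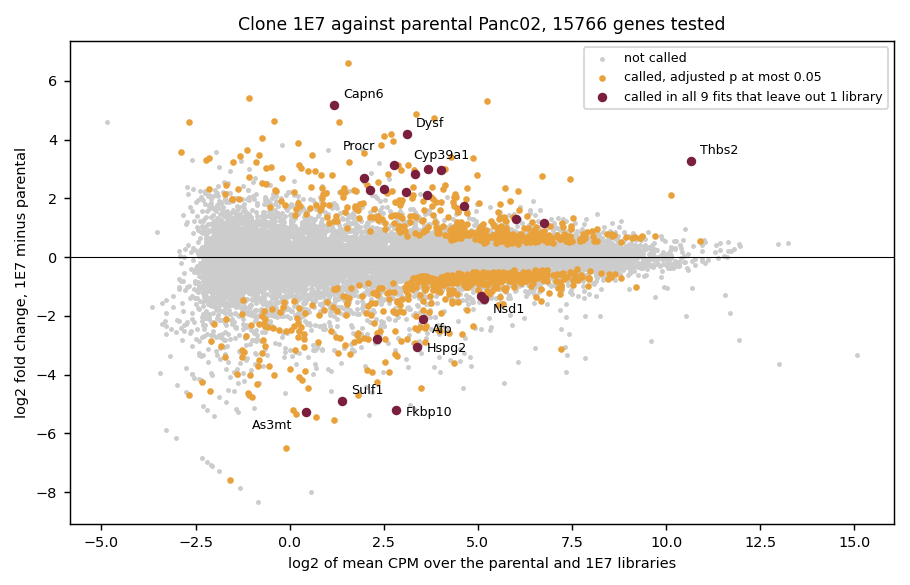
Each point is 1 of the 15766 genes tested. The horizontal axis is log2 of the mean CPM over the 6 parental and 1E7 libraries and the vertical axis is the fitted log2 fold change of 1E7 against parental. Orange points are the called genes and dark points the 23 genes called in every leave-one-out fit. Both called classes lie on either side of 0 at most levels, and Thbs2 is the dark point at the highest level.

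Clone 1E7 replicate 2 was the 1E7 library nearest to the parental values for 212 of the 401 higher genes (52.9%) and 249 of the 453 lower genes (55.0%). Replicate 1 held that place for 28.9% and 31.3% of them, and replicate 3 for 18.2% and 13.7%. Many of the changes below were therefore smallest in 1E7 2, as the plot of the largest changes shows. Counts of calls were fewest when 1E7 1 or 1E7 3 was left out: 30 higher and 19 lower genes were called without 1E7 1, and 16 and 8 without 1E7 3. Without 1E7 2 there were 240 higher and 354 lower. Of all 854 called genes, 23 kept their call in all 9 fits, and the rule for naming genes favoured those. Of the 120 called genes named in the text, 98 lost their call in at least 1 of the 9 fits, and all of these lost it without 1E7 3. Leaving out 1E7 1 ended 96 of their calls and leaving out parental 1 ended 89. Parental 2, 1G2 2, parental 3, 1G2 1 and 1E7 2, left out in turn, ended 61, 58, 56, 53 and 38, and 1G2 3 ended 0.

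There were 23 genes, 0.146% of those tested, that were called with all libraries and in all 9 leave-one-out fits, 15 of them higher and 8 lower. Among the higher genes were Cyp39a1 of sterol metabolism, Thbs2 of the matrix, and the signalling genes Arrb1, Prkd3 and Ptpn13. The lower genes included Fkbp10, Hspg2 and Sulf1, which act on collagen or the basement membrane, and Nsd1, a histone methyltransferase gene. Apold1, Ptpn13, Flot2, Gm15990, Prkd3 and Ccdc68, outside the 8 of each direction with the smallest p-values, were added after their values were seen.

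Cyp39a1, which encodes a hydroxylase of oxysterols on the path to bile acids (chromosome 17, 43667425 to 43751431), stood at 3.224, 2.90 and 2.45 CPM in parental and 20.8, 22.7 and 24.4 CPM in 1E7. Its log2 fold change was 2.99 ± 0.21 (adjusted p = 0.00105), and the 3 libraries of each group lay close together. The 1G2 libraries stood at 0.908, 0.914 and 1.25 CPM.

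Arrb1, which encodes beta-arrestin 1, the adaptor that binds activated receptors and stops their signalling through G proteins (chromosome 7, 99535466 to 99606771), stood at 2.10, 3.01 and 2.31 CPM in parental and 16.6, 18.4 and 17.6 CPM in 1E7. Its log2 fold change was 2.82 ± 0.27 (adjusted p = 0.00377). The 1G2 values were 3.27, 4.29 and 6.05 CPM. Prkd3, a member of the protein kinase D family, stood at 3.03, 3.12 and 2.95 CPM in parental and 12.01, 14.1 and 15.8 CPM in 1E7 (log2 fold change 2.20 ± 0.23, adjusted p = 0.00512). Ptpn13, a large protein tyrosine phosphatase gene, stood at 59.6, 68.3 and 72.3 CPM in parental against 139.6, 146 and 165 CPM in 1E7 (1.17 ± 0.13, adjusted p = 0.00526). All 3 signalling genes were higher in every 1E7 library than in any parental library.

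Thbs2, the gene of thrombospondin-2 of the matrix, stood at 289, 281 and 347 CPM in parental, 2756, 3399 and 2658 CPM in 1E7 and 9.99, 11.8 and 5.43 CPM in 1G2. In 1E7 against parental the change was 3.27 ± 0.28 on the log2 scale (adjusted p = 0.00276). Procr, the gene of the endothelial protein C receptor (chromosome 2, 155751117 to 155755471), stood at 1.23, 1.24 and 1.67 CPM in parental and 13.7, 10.7 and 12.1 CPM in 1E7 (3.14 ± 0.32, adjusted p = 0.00463). The 1G2 libraries had 0.109, 0.126 and 0.0305 CPM of Procr. For Cyp39a1, Thbs2 and Procr the levels of 1G2 were the lowest of the 3 groups and those of 1E7 the highest, and both clones were compared with the same parental libraries.

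Dysf, the gene of the membrane repair protein dysferlin, stood at 0.601, 1.16 and 0.945 CPM in parental and 21.3, 13.7 and 14.4 CPM in 1E7 (log2 fold change 4.19 ± 0.37, adjusted p = 0.00286). Flot2, which encodes the membrane scaffold flotillin-2, stood at 39.0, 40.7 and 32.3 CPM in parental against 98.7, 86.2 and 89.7 CPM in 1E7 (1.29 ± 0.14, adjusted p = 0.00526). Capn6, which encodes a calpain that lacks the protease's active site, went from 0.137, 0.0828 and 0.139 CPM in parental to 4.69, 3.92 and 4.597 CPM in 1E7 (5.16 ± 0.54, adjusted p = 0.00526). It was the 1 gene that lay under 0.5 CPM in every parental library and at 2 CPM or more in every 1E7 library. Vwa5a, Apold1, Ccdc68 and the unnamed loci 9330182L06Rik and Gm15990 were also among the higher genes, with log2 fold changes of 1.74, 2.28, 2.33, 2.10 and 2.68.

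Fkbp10, which encodes a prolyl isomerase of the endoplasmic reticulum that helps collagen to fold (chromosome 11, 100415697 to 100424824), fell from 15.2, 16.1 and 10.4 CPM in parental to 0.452, 0.303 and 0.358 CPM in 1E7. The log2 fold change was -5.22 ± 0.36 (adjusted p = 0.00105). In 1G2 it stood at 0.291, 0.567 and 0.611 CPM. Its neighbour P3h4, whose product takes part in the modification of collagen lysines, begins 860 bases away and was chosen for that position after its values were seen. P3h4 stood at 10.7, 8.53 and 6.67 CPM in parental and 0.989, 2.77 and 0.478 CPM in 1E7 (-2.59 ± 0.54, adjusted p = 0.0344, called in 2 of 9 leave-one-out fits), and at 8.06, 8.20 and 7.21 CPM in 1G2. The neighbours were both lower in 1E7, whereas in 1G2 Fkbp10 was low and P3h4 lay at parental levels.

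Hspg2, the gene of the basement membrane proteoglycan perlecan, stood at 19.7, 17.1 and 19.4 CPM in parental, 1.81, 1.95 and 3.04 CPM in 1E7 and 3.30, 4.44 and 3.24 CPM in 1G2 (1E7 against parental -3.05 ± 0.26, adjusted p = 0.00276). Sulf1, which encodes an extracellular enzyme that removes sulfate groups from heparan sulfate chains (chromosome 1, 12692277 to 12861192), stood at 5.22, 4.31 and 5.84 CPM in parental and 0.0848, 0.303 and 0.0895 CPM in 1E7. Its log2 fold change was -4.90 ± 0.52 (adjusted p = 0.00526). The 1G2 values of Sulf1 were 0.472, 0.820 and 0.916 CPM, between those of the other groups.

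Nsd1, which encodes a methyltransferase for lysine 36 of histone H3, stood at 57.7, 50.5 and 48.2 CPM in parental and 18.7, 19.6 and 20.6 CPM in 1E7 (-1.41 ± 0.13, adjusted p = 0.00318). Bnc1, which encodes the zinc finger protein basonuclin 1 of keratinocytes and germ cells, stood at 8.09, 10.4 and 7.64 CPM in parental against 0.876, 1.46 and 1.43 CPM in 1E7 (-2.79 ± 0.27, adjusted p = 0.00377). Afp, the gene of the fetal serum protein alpha-fetoprotein, stood at 19.7, 16.8 and 20.2 CPM in parental against 3.65, 5.78 and 3.76 CPM in 1E7 (-2.10 ± 0.21, adjusted p = 0.00427). These were lower in every 1E7 library. As3mt, an arsenic methyltransferase gene, fell below 0.5 CPM in every 1E7 library, from 2.95, 2.62 and 2.31 to 0.0565, 0.0947 and 0.0299 CPM (-5.29 ± 0.46, adjusted p = 0.00276). In 1G2 it stood at 0.145, 0.0946 and 0.214 CPM. Of the 8 lower genes, 6 also lay lower in every 1G2 library than in any parental library (Fkbp10, Hspg2, As3mt, Nsd1, Bnc1 and Sulf1), and Afp lay higher. Of the 15 higher genes, 8 lay lower in every 1G2 library than in any parental library and 1, Arrb1, lay higher. The parental libraries are shared by both comparisons, and the matching shares over all genes tested were not counted. These numbers therefore do not set these genes apart from other genes.

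**Figure D2:**
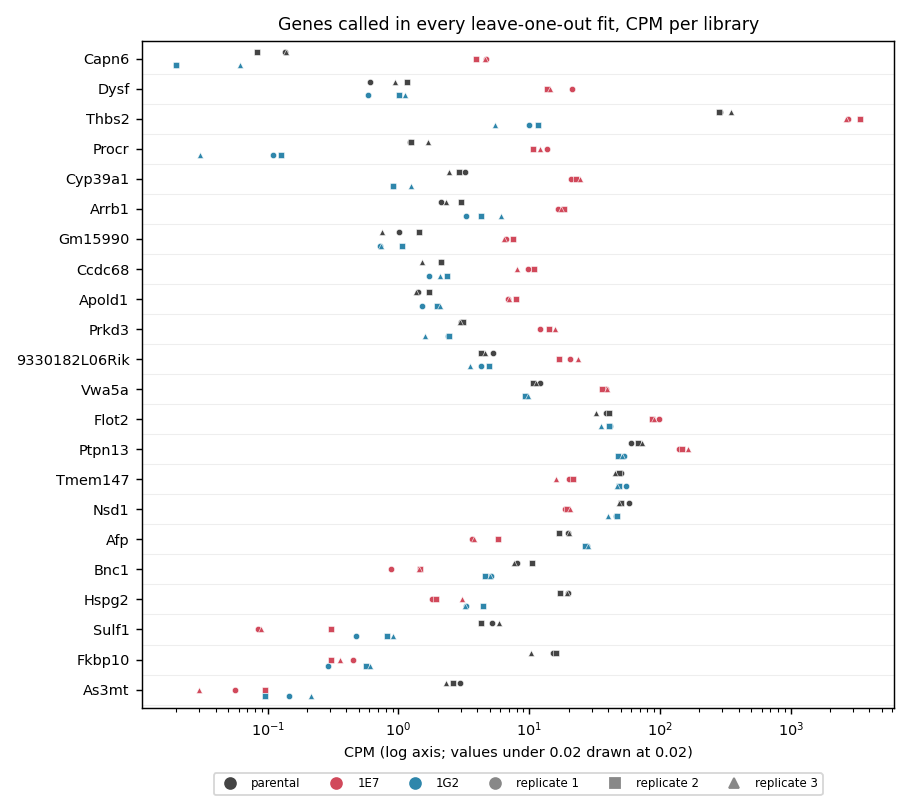
CPM in every library, on a log axis, of 22 genes called in every leave-one-out fit, in the order of their log2 fold change. Colour gives the group and shape the replicate. The 1E7 points lie to the right of the parental points for 14 genes and to the left for 8, with no overlap.

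Tmem147, the last of the 8 lower genes, encodes a membrane protein of the endoplasmic reticulum. It stood at 50.4, 48.8 and 45.3 CPM in parental, 20.3, 21.7 and 15.9 CPM in 1E7 and 54.7, 48.8 and 46.8 CPM in 1G2 (1E7 against parental -1.32 ± 0.15, adjusted p = 0.00676). Its promoter is shown because it was the member of these 23 genes whose promoter window held the full cyclic AMP response element, TGACGTCA, the letters CREB binds. The 250 bases before its start, from RefSeq on GRCm38.p6 (chr7:30729535-30729784, minus strand), read as follows with the element in capitals, 51 to 44 bases before the start.
Tmem147: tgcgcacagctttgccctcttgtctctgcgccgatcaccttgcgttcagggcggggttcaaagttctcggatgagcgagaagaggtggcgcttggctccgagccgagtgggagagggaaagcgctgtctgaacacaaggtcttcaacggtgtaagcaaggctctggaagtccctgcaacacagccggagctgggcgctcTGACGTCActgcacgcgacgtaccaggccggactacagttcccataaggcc
Both strands of the window from 250 bases before to 50 after each start were searched, for the 10493 of 15755 tested symbols that have a window in the RefSeq table. The element was in 6 of 290 windows of higher genes (2.07%), 18 of 369 windows of lower genes (4.88%) and 376 of all windows (3.58%). These are matches of letters and say nothing about binding in these cells.

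By size of change, the 12 largest rises with a mean of at least 5 CPM in 1E7 began with C4bp, a gene of the complement inhibitor C4b-binding protein, at 0, 0.0552 and 0.111 CPM in parental, where 0 allows up to 3 counts, and 9.18, 0.417 and 7.73 CPM in 1E7. Its log2 fold change was 6.62 ± 1.34 (adjusted p = 0.0306), kept in 2 of 9 leave-one-out fits, and 1E7 2 was far below the other 1E7 libraries. Gdpd2, a phosphodiesterase gene, stood at 0.519, 1.21 and 0.306 CPM in parental and 34.1, 4.87 and 20.4 CPM in 1E7 (4.85 ± 0.79, adjusted p = 0.0169, 6 of 9 fits). The matrix protease gene Mmp3 and the basal epithelial factor gene Trp63 had log2 fold changes of 5.30 and 4.74, called in 4 and 7 of 9 fits, and they too were lowest in 1E7 2 among the 1E7 libraries.

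Cyp26b1, which encodes the enzyme that inactivates retinoic acid (chromosome 6, 84571414 to 84593908), stood at 0.301, 1.10 and 0.584 CPM in parental and 18.8, 8.05 and 9.88 CPM in 1E7. Its log2 fold change was 4.20 ± 0.56 (adjusted p = 0.0117), and the call ended in 1 of 9 leave-one-out fits, the one without 1E7 3 (adjusted p = 0.0560). Cyp26b1 is the tested gene next to Dysf on chromosome 6. Fbln1, which encodes the matrix protein fibulin-1, stood at 0.601, 0.828 and 0.417 CPM in parental against 11.95, 2.63 and 17.8 CPM in 1E7 (4.12 ± 0.83, adjusted p = 0.0306, 3 of 9 fits). Osmr, the gene of a receptor subunit for oncostatin M, stood at 0.738, 0.497 and 0.890 CPM in parental against 13.1, 3.96 and 13.3 CPM in 1E7 (3.83 ± 0.65, adjusted p = 0.0181, 5 of 9 fits). In both genes 1E7 2 was the lowest 1E7 library and lay above every parental library.

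Regulators known from lymphocytes were among the same rises. Pou2af1, which encodes a coactivator best known in B cells, stood at 1.01, 1.19 and 0.250 CPM in parental and 14.1, 16.9 and 6.69 CPM in 1E7 (3.94 ± 0.70, adjusted p = 0.0217, 6 of 9 fits). Ikzf2, which encodes the lymphoid transcription factor Helios, stood at 0.464, 0.276 and 1.14 CPM in parental against 8.05, 6.42 and 7.28 CPM in 1E7 (3.53 ± 0.58, adjusted p = 0.0172, 6 of 9 fits). Markers of leukocytes are given for comparison: summed over the list of 28 they stood at 51.5, 5.66 and 19.0 CPM in parental and 59.1, 59.8 and 51.1 CPM in 1E7. In 1G2 the sums were 76.2, 47.8 and 62.2 CPM. There Pou2af1 stood at 0.545, 0.504 and 0.0916 CPM and Ikzf2 at 0.109, 0.158 and 0.427 CPM. The part of leukocyte RNA in the values of Pou2af1 and Ikzf2 was not tested. Selenbp1, which encodes a selenium-binding protein, and the transcription factor gene Sox13 closed the list with log2 fold changes of 3.40 and 3.39. Both were called in 2 of 9 fits and were lowest in parental 3 among all 6 libraries, at 0.751 and 1.25 CPM.

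Of the 12 largest falls, Fkbp10 and Sulf1 are described above. Zfp503, Prickle2, Zfp850, Uhrf2 and Igf2os shared a pattern over the 1E7 libraries. Zfp503, a zinc finger gene, stood at 10.5, 7.67 and 16.9 CPM in parental and 0.198, 1.72 and 0.298 CPM in 1E7 (-3.91 ± 0.86, adjusted p = 0.0382, 2 of 9 fits). Prickle2, a gene of planar cell polarity, stood at 7.38, 10.6 and 7.81 CPM in parental against 0.226, 1.21 and 0.209 CPM in 1E7 (-3.90 ± 0.70, adjusted p = 0.0217, 5 of 9 fits). Zfp850 stood at 6.31, 6.57 and 10.5 CPM in parental against 0.0565, 1.17 and 0.298 CPM in 1E7 (-3.86 ± 0.82, adjusted p = 0.0350, 2 of 9 fits). In each, 1E7 2 held more than the other 1E7 libraries and less than any parental library. The ubiquitin ligase gene Uhrf2, at 37.5, 33.0 and 43.2 CPM in parental against 0.820, 7.45 and 0.836 CPM in 1E7 (-3.61 ± 0.81, 2 of 9 fits), and Igf2os, at 10.1, 8.72 and 9.79 CPM in parental against 0.113, 1.27 and 0.0299 CPM in 1E7 (-4.24 ± 0.90, 2 of 9 fits), did the same. Igf2os lies antisense to Igf2, and since the strand setting of the counting is not given, reads of these genes may have been shared.

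Itgb7, which encodes the integrin subunit beta 7 of lymphocytes, stood at 14.2, 3.12 and 14.7 CPM in parental and 0.989, 0.682 and 1.01 CPM in 1E7 (-3.58 ± 0.63, adjusted p = 0.0210, 4 of 9 fits). Here parental 2 was the lowest parental library. The remaining falls were interferon-induced genes. Cmpk2, the gene of a mitochondrial nucleotide kinase, stood at 20.6, 13.1 and 31.2 CPM in parental and 0.198, 2.48 and 0.119 CPM in 1E7 (-4.46 ± 0.97, adjusted p = 0.0375, 2 of 9 fits).

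**Figure D3:**
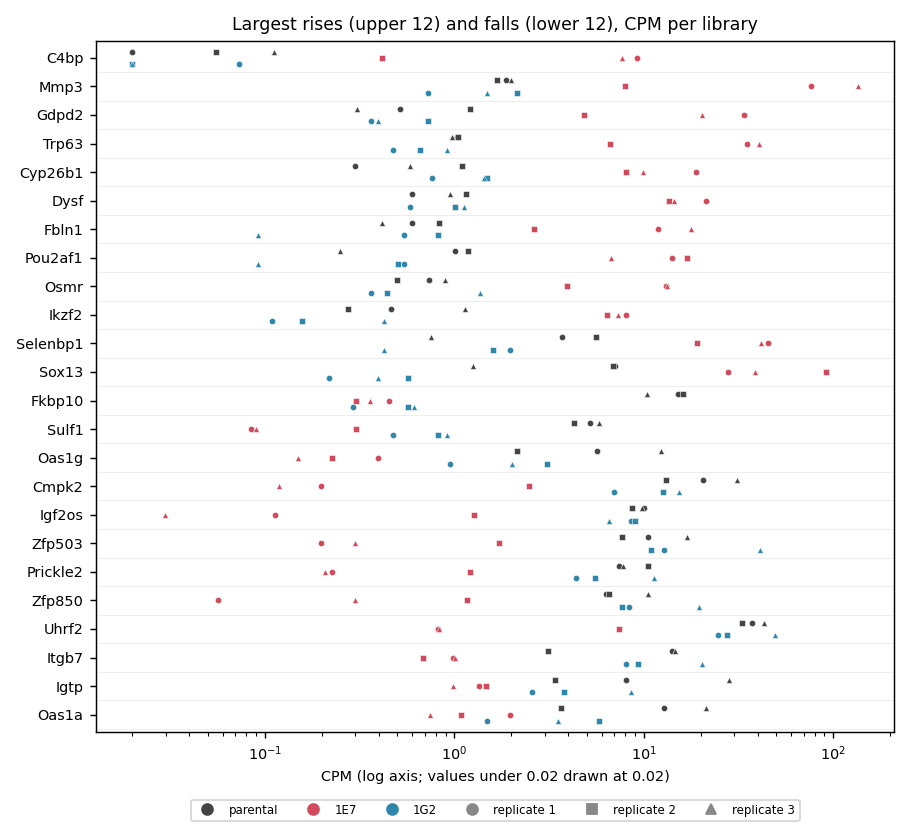
CPM in every library, on a log axis, of the 12 largest rises and the 12 largest falls. Colour gives the group and shape the replicate, and values under 0.02 are drawn at 0.02. For C4bp, Mmp3, Gdpd2 and Trp63 the square of 1E7 replicate 2 lies between the other 1E7 points and the parental points.

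Oas1g and Oas1a, near-identical neighbours on chromosome 5 that encode enzymes sensing double-stranded RNA, and Igtp, which encodes a guanosine triphosphatase that acts on vacuoles of pathogens, are shown with their promoters. Interferon acts on such genes through the interferon-stimulated response element, whose core, GAAA followed by any 2 bases and GAAA again, was searched here on both strands. The windows are the 250 bases before the RefSeq start on GRCm38.p6: chr5:120887614-120887863 (minus strand) for Oas1g, chr5:120907526-120907775 (minus) for Oas1a and chr11:58199306-58199555 (plus) for Igtp. Capitals mark the core, which overlaps itself in Oas1g and Oas1a.
Oas1g: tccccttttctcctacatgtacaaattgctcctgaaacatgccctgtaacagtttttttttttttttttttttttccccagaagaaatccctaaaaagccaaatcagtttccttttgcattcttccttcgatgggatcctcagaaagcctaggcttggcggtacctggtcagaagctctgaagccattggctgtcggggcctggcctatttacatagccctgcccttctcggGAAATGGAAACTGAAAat
Oas1a: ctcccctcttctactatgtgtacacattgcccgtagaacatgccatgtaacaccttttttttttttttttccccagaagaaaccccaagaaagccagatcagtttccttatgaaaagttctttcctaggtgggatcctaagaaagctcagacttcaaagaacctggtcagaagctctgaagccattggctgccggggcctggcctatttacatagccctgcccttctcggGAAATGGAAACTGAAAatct
Igtp: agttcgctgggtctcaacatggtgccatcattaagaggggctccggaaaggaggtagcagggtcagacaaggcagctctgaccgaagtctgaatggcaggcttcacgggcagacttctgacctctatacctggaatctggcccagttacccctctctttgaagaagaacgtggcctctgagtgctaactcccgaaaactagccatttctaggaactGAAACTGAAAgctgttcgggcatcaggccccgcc
The core lay 18 to 3 bases before the start in Oas1g, 20 to 5 in Oas1a and 34 to 25 in Igtp. It was in 15 of 369 windows of lower genes (4.07%), 13 of 290 windows of higher genes (4.48%) and 387 of all 10493 windows (3.69%).

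Oas1g stood at 5.68, 2.15 and 12.3 CPM in parental and 0.396, 0.227 and 0.149 CPM in 1E7 (-4.69 ± 0.77, adjusted p = 0.0170, 7 of 9 fits). Oas1a stood at 12.8, 3.64 and 21.3 CPM in parental against 1.98, 1.08 and 0.746 CPM in 1E7 (-3.31 ± 0.73, adjusted p = 0.0389, 3 of 9 fits), and reads may be shared between the copies, so their separate values are uncertain. Igtp stood at 8.09, 3.42 and 28.3 CPM in parental against 1.36, 1.48 and 0.985 CPM in 1E7 (-3.37 ± 0.79, adjusted p = 0.0447, 2 of 9 fits). In all 3 the parental libraries were widely spread, with parental 3 the highest and parental 2 the lowest, and the 1E7 libraries lay together below them. With parental 3 and 1G2 3 left out, the log2 fold changes were -3.92 for Oas1g, -2.70 for Oas1a and -2.17 for Igtp, and the call of Oas1a ended (adjusted p = 0.0546). Among higher genes, Capn6 carried the core as well, 174 to 165 bases before its start (chrX:143827413-143827662, minus strand), and is printed because its direction was the opposite.
Capn6: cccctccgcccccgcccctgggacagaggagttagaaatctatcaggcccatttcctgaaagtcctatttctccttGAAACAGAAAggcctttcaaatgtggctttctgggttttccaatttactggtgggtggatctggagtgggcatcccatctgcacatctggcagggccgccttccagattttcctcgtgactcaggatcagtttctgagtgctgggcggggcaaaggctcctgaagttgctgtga

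By difference in mean CPM, Thbs2 came first among the rises and was followed by Cp, the gene of the ferroxidase ceruloplasmin, at 538, 491 and 217 CPM in parental and 2142, 1343 and 1945 CPM in 1E7 (2.12 ± 0.40, adjusted p = 0.0250, 5 of 9 fits). Tpt1, which encodes the translationally controlled tumour protein, stood at 1635, 1389 and 1632 CPM in parental against 2227, 2310.4 and 2262 CPM in 1E7 (0.55 ± 0.12, adjusted p = 0.0391). Ttc39b stood at 651, 661 and 592 CPM in parental against 905, 1078 and 1157 CPM in 1E7 (0.72 ± 0.14, adjusted p = 0.0271). The groups did not overlap in any of these genes. The lysosomal protease gene Ctsb (log2 fold change 0.72) and the transcription factor gene Nfib (0.65) were the others. Apart from Thbs2 and Cp, each was called in 1 of 9 leave-one-out fits.

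Among the falls by difference in CPM were Neat1, the long noncoding RNA of nuclear paraspeckles, at 756, 613 and 979 CPM in parental and 399, 433 and 338 CPM in 1E7 (-1.005 ± 0.21, adjusted p = 0.0350, 2 of 9 fits), and Plac8 (-3.13, 7 of 9). The remaining genes are tied to protein synthesis. Rps16, a ribosomal protein gene on chromosome 7, stood at 450.0, 480.2 and 402 CPM in parental against 268, 275 and 246 CPM in 1E7 (-0.76 ± 0.12). Rpl18, on the same chromosome, stood at 548, 541 and 579.8 CPM against 376, 341 and 311 CPM (-0.70 ± 0.14). The median log2 fold change of all 1240 genes tested on chromosome 7 was -0.45. Larp1, a regulator of the mRNAs of ribosomal proteins, changed by -0.69 ± 0.14 and Pa2g4, which encodes a protein of growing cells that binds ribosomes, by -0.66 ± 0.16. Calls were kept in 6, 1, 2 and 1 of 9 fits for Rps16, Rpl18, Larp1 and Pa2g4, and reads of ribosomal protein genes may be shared with their pseudogene copies. Piwil2, a germline gene of the PIWI family, was with Fkbp10, As3mt, Sulf1 and Oas1g a gene under 0.5 CPM in every 1E7 library and at 2 CPM or more in every parental library. It went from 4.95, 4.33 and 3.95 to 0.0565, 0.0947 and 0.119 CPM (-5.56 ± 1.05, adjusted p = 0.0259, 3 of 9 fits), and stood at 0.327, 0.315 and 3.69 CPM in 1G2.

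Gene families were then read from 41 lists of 1272 symbols, of which 883 were tested and 66 called (7.47%), 37 higher and 29 lower, with a median log2 fold change of -0.02. Beside the 5.42% and -0.03 of all genes tested, most lists held between 0 and 4 called members, and no list was tested as a set. The lists were written with earlier results of these data known. Their shares of called genes may therefore reflect the choice of members. The shares of the larger lists described here are drawn in the plot of called list members.

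**Figure D4:**
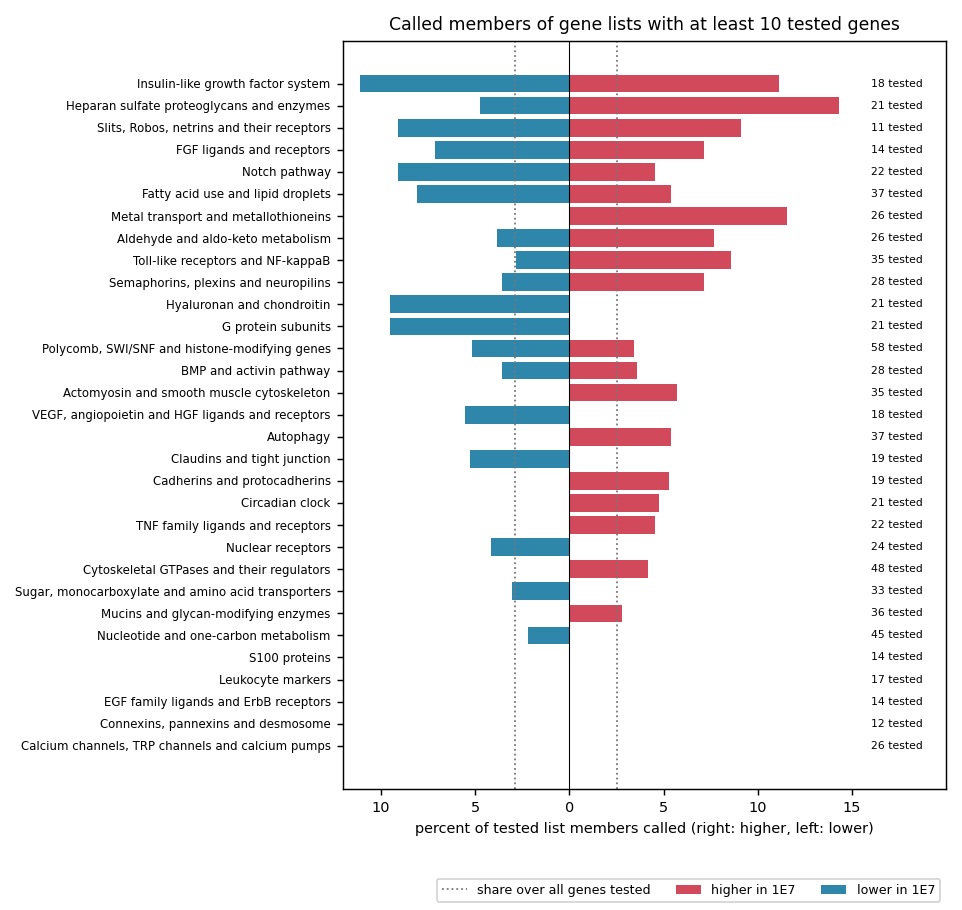
Bars give the percent of tested members called higher (right) and lower (left) in 1E7, for the lists described here with at least 10 tested members, whose number stands at the right. Dotted lines mark 2.54% and 2.87%, the shares over all genes. In a list of 21 genes, 2 called members make 9.52%, so few genes set each bar.

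Among the signalling partners of receptors such as VPAC2, G protein subunits had 0 higher and 2 lower of 21 tested (median -0.03). The lower members encode gamma subunits: Gng7 stood at 3.63, 2.98 and 2.56 CPM in parental and 1.33, 1.55 and 1.46 CPM in 1E7 (-1.08 ± 0.26, adjusted p = 0.0476, 1 of 9 fits), and Gng10 at 13.9, 17.1 and 12.1 CPM in parental against 7.83, 9.19 and 8.36 CPM in 1E7 (-0.77 ± 0.16, adjusted p = 0.0357, 2 of 9 fits). Of other receptors coupled to Gs, 7 were tested and 1 was called, Ptger4, a receptor for prostaglandin E2, which was higher. The list had 1 positive and 6 negative estimates, with a median of -1.33. By edgeR, 4 of its members had an unadjusted p below 0.05. Ptger4 stood at 2.95, 4.03 and 2.53 CPM in parental and 10.9, 6.101 and 6.45 CPM in 1E7 (1.30 ± 0.30, adjusted p = 0.0419, 1 of 9 fits). The calls of Gng7, Gng10 and Ptger4 thus rested on most of the libraries being present.

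Developmental signalling genes moved in both directions. The Hedgehog pathway had 2 higher and 0 lower of 8 tested (median 0.46): Gas1, a coreceptor for Hedgehog, stood at 26.5, 38.8 and 14.9 CPM in parental and 213, 164 and 168 CPM in 1E7 (2.76 ± 0.47, adjusted p = 0.0189, 6 of 9 fits), and Hhat, the enzyme that puts palmitate on the ligand, stood at low levels of 0.0820, 0.138 and 0.195 CPM in parental against 0.565, 0.606 and 0.478 CPM in 1E7 (1.97 ± 0.41, 1 of 9). The Notch pathway had 1 higher and 2 lower of 22 tested (median -0.23). Its target genes parted: Hey1 stood at 0.628, 0.663 and 0.473 CPM in parental against 1.72, 1.48 and 5.94 CPM in 1E7 (2.36 ± 0.55, 2 of 9 fits) and Hes1 at 19.12, 15.0 and 17.6 CPM in parental against 7.21, 6.48 and 4.42 CPM in 1E7 (-1.51 ± 0.24, 6 of 9 fits). Rfng, which encodes a glycosyltransferase for Notch receptors, changed by -0.64 (1 of 9). The BMP and activin pathway had 1 higher and 1 lower of 28 tested, the extracellular regulator gene Bmper (1.32 ± 0.32) and the inhibin subunit gene Inha (-1.08 ± 0.24), both in 1 of 9 fits.

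For guidance cues, semaphorins, plexins and neuropilins had 2 higher and 1 lower of 28 tested (median 0.14). The secreted ligand genes Sema3d and Sema3a went opposite ways: Sema3d stood at 30.8, 31.0 and 18.8 CPM in parental and 81.5, 61.5 and 66.7 CPM in 1E7 (1.38 ± 0.22, 6 of 9 fits), and Sema3a at 8.91, 6.90 and 15.5 CPM in parental against 2.26, 3.77 and 2.63 CPM in 1E7 (-1.85 ± 0.37, 3 of 9 fits). Sema6c, a membrane-bound member, rose by 1.64 on the log2 scale (3 of 9). Slits, Robos, netrins and their receptors had Ntn5 higher (2.48 ± 0.56, 2 of 9) and Ntn4 lower (-1.37 ± 0.29, 3 of 9) of 11 tested. Ntn4 encodes a netrin of basement membranes and stood at 58.2, 33.6 and 55.9 CPM in parental and 13.7, 26.4 and 17.19 CPM in 1E7.

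Among growth factors, the insulin-like growth factor system had the largest share of the lists with at least 10 tested members, 2 higher and 2 lower of 18 tested (median -0.18). The ligand gene Igf1 stood at 0.929, 1.35 and 1.53 CPM in parental and 9.41, 5.21 and 6.39 CPM in 1E7 (2.46 ± 0.39, adjusted p = 0.0165, 6 of 9 fits). The insulin receptor gene Insr stood at 75.4, 69.7 and 75.3 CPM in parental against 100.1, 169 and 134 CPM in 1E7 (0.87 ± 0.18, 2 of 9 fits). The lower members are known to restrain the pathway, and whether its activity changed was not tested. The binding protein gene Igfbp4 stood at 46.9, 16.4 and 58.9 CPM in parental against 4.83, 10.4 and 4.69 CPM in 1E7 (-2.61 ± 0.61, 2 of 9 fits). Stc2, an inhibitor of the protease that cuts Igfbp4, changed by -1.49 (3 of 9). Igfbp4 was spread among the parental libraries, with parental 2 nearest to 1E7. The list had 8 positive and 10 negative estimates. DESeq2 called 3 of its genes higher and 2 lower, with another binding protein gene, Igfbp5, among the higher. Summed over the list, levels were 1171, 1036 and 1075 CPM in parental and 721, 795 and 646 CPM in 1E7.

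FGF ligands and receptors had 1 higher and 1 lower of 14 tested (median -0.56), with Fgfrl1, a receptor without a kinase domain, at 15.0, 15.5 and 10.4 CPM in parental and 39.9, 42.0 and 34.2 CPM in 1E7 (1.51 ± 0.24, 6 of 9 fits). Fgfbp1, a carrier that releases FGFs from the matrix, changed by -1.53 (3 of 9). In the list of VEGF, angiopoietin and HGF ligands and receptors, 1 of 18 was called: Vegfc, the lymphatic growth factor gene, went from 1.37, 0.994 and 1.89 to 0.0283, 0.171 and 0.0299 CPM (-4.02 ± 0.77, adjusted p = 0.0270, 5 of 9 fits). EGF family ligands and ErbB receptors had 0 of 14 called by edgeR, 1 with an unadjusted p below 0.05 and 0 by DESeq2. Their median was 0.00.

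At the cell surface and in the matrix, heparan sulfate proteoglycans and enzymes had 3 higher and 1 lower of 21 tested (median 0.09). Beside the fall of Sulf1, the syndecan gene Sdc3 stood at 23.4, 33.1 and 13.4 CPM in parental and 134, 111 and 86.3 CPM in 1E7 (2.24 ± 0.37, adjusted p = 0.0173, 6 of 9 fits). The glypican gene Gpc6 rose by 1.04 (1 of 9) and Ndst2, which encodes an enzyme that sulfates the growing chain, by 0.82 (2 of 9). Hyaluronan and chondroitin genes had 0 higher and 2 lower of 21 tested: Acan, the gene of the cartilage proteoglycan aggrecan, went from 2.595, 3.26 and 0.723 to 0.0283, 0.0379 and 0.0895 CPM (-5.36 ± 0.82, 7 of 9 fits), and the hyaluronan synthase gene Has1 from 15.4, 15.9 and 24.0 to 1.95, 5.99 and 2.57 CPM (-2.38 ± 0.40, 6 of 9 fits). The 1E7 counts of Acan were close to none, and the groups did not overlap.

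In the adhesion and cytoskeleton lists, 0% to 11.1% of tested genes were called, beside 5.42% over all genes. The 11.1% was 1 of 9 intermediate filament genes, and the other lists lay at or below 5.71%. Claudins and tight junction genes had 0 higher and 1 lower of 19 tested (Cldn7, -1.89, 6 of 9 fits), with a median of -0.33, and cadherins and protocadherins had 1 higher and 0 lower of 19 tested (Pcdhb22, 2.38, 7 of 9 fits). Connexins, pannexins and desmosome genes had 0 of 12 called by edgeR, with 1 at an unadjusted p below 0.05 and 1 lower by DESeq2 (Pkp2), and 11 of the 12 estimates were negative (median -0.44). The actomyosin list had 2 higher and 0 lower of 35 tested: Tpm4, a tropomyosin gene, stood at 436, 479 and 416 CPM in parental and 719.5, 729 and 709 CPM in 1E7 (0.70 ± 0.11, 6 of 9 fits), and Synpo, of the actin-bundling protein synaptopodin, at 17.6, 22.0 and 25.0 CPM in parental against 97.4, 46.9 and 81.7 CPM in 1E7 (1.81 ± 0.38, 3 of 9 fits). The intermediate filament gene Nes changed by -1.42 (4 of 9). GTPases of the cytoskeleton and their regulators had 2 higher and 0 lower of 48 tested. Their called members were Arhgdib, which encodes a GTPase inhibitor of blood cells (1.41 ± 0.28, 4 of 9), and the exchange factor gene Arhgef6 (2.24 ± 0.44, 3 of 9). Arhgdib stood at 41.9, 30.8 and 58.1 CPM in parental, 143, 78.7 and 126 CPM in 1E7 and 3.89, 3.03 and 3.48 CPM in 1G2. Leukocyte marker levels are given above, and their part in the value of Arhgdib was not tested.

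In metabolism, metal transport had 3 higher and 0 lower of 26 tested (median 0.04), all on the handling of iron and copper. Beside Cp, the ferrireductase gene Steap3 stood at 21.5, 21.8 and 7.70 CPM in parental and 99.1, 104 and 59.6 CPM in 1E7 (2.37 ± 0.49, 1 of 9 fits), and the copper pump gene Atp7b at 0.437, 0.911 and 0.862 CPM in parental against 2.12, 3.600 and 1.76 CPM in 1E7 (1.76 ± 0.43, 1 of 9 fits). Ceruloplasmin receives its copper through Atp7b. Genes of fatty acid use and lipid droplets had 2 higher and 3 lower of 37 tested (median 0.33). Ucp2, a carrier gene of the inner mitochondrial membrane, stood at 5.87, 4.11 and 1.58 CPM in parental against 38.6, 19.4 and 34.9 CPM in 1E7 (3.00 ± 0.49, 7 of 9 fits), and the lipid droplet coat gene Plin4 at 4.81, 3.06 and 5.45 CPM in parental against 38.7, 8.17 and 22.2 CPM in 1E7 (2.37 ± 0.55, 2 of 9 fits). Fabp5 (-1.86 ± 0.33), Acox2 (-2.42 ± 0.51) and Acsl1 (-0.87 ± 0.21), which bind, oxidise and activate fatty acids, were lower, in 4, 3 and 1 of 9 fits.

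Aldehyde and aldo-keto metabolism had 2 higher and 1 lower of 26 tested (median 0.33). Aldh6a1, a mitochondrial enzyme of valine breakdown, stood at 7.84, 8.06 and 7.92 CPM in parental and 25.7, 20.1 and 26.2 CPM in 1E7 (1.60 ± 0.22, adjusted p = 0.0119, 7 of 9 fits), a difference far larger than the spread in parental. Akr1c13 changed by 0.996 (1 of 9) and the carbonyl reductase gene Cbr3 by -3.05 (3 of 9). Among sugar, monocarboxylate and amino acid transporters 1 of 33 was lower, the glutamine transporter gene Slc1a5 (-0.97 ± 0.21, 2 of 9). Of 45 genes of nucleotide and one-carbon metabolism 1 was lower, Umps of pyrimidine synthesis, at 112, 119 and 98.9 CPM in parental and 67.5, 56.9 and 66.3 CPM in 1E7 (-0.79 ± 0.13, 5 of 9). Calcium channels, TRP channels and calcium pumps had 0 of 26 called by edgeR, 3 at an unadjusted p below 0.05 and 1 lower by DESeq2 (Orai3).

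For innate immunity, the list of Toll-like receptors and NF-kappaB had 3 higher and 1 lower of 35 tested (median -0.12). Higher were Irak3, the decoy kinase that blocks signalling from Toll-like receptors, at 0.273, 0.193 and 0.278 CPM in parental and 3.28, 1.69 and 3.40 CPM in 1E7 (3.47 ± 0.45, adjusted p = 0.0111, 7 of 9 fits), and Tnip3, of a protein that binds the inhibitor A20, at 9.34, 10.1 and 11.8 CPM in parental against 42.9, 22.6 and 33.5 CPM in 1E7 (1.66 ± 0.25, 6 of 9 fits). The active kinase gene Irak1 was lower, at 106, 113 and 94.8 CPM in parental against 67.0, 74.9 and 70.9 CPM in 1E7 (-0.56 ± 0.11, 2 of 9 fits). The kinase gene Ikbkb, which releases NF-kappaB, rose by 0.51 (1 of 9). It lies on chromosome 8, where the median log2 fold change of all genes tested was 0.31. The TNF family had the death receptor gene Tnfrsf10b higher of 22 (0.61 ± 0.12, 2 of 9). In 1G2 Irak3 stood at 0.145, 0.252 and 0.397 CPM. Irak3 is also active in leukocytes, and the part of the leukocyte marker levels given above in its values was not tested.

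In the nucleus, the list of Polycomb, SWI/SNF and histone-modifying genes had 2 higher and 3 lower of 58 tested (median -0.06). Smarca1, a chromatin remodelling gene on the X chromosome, stood at 0.710, 1.24 and 1.14 CPM in parental and 5.71, 2.82 and 4.33 CPM in 1E7 (2.05 ± 0.44, 3 of 9 fits), and Pbrm1 of the SWI/SNF complex rose by 0.56 (1 of 9). The deacetylase gene Hdac9 stood at 30.0, 18.1 and 27.7 CPM in parental against 8.65, 10.8 and 8.92 CPM in 1E7 (-1.41 ± 0.23, 6 of 9 fits), and Kmt2b and Pcgf5 changed by -0.55 and -0.63 (1 and 2 of 9). Nuclear receptors had Nr1h3 lower of 24. It encodes LXR-alpha, the receptor for oxysterols, which the Cyp39a1 enzyme metabolises, and stood at 2.54, 2.35 and 1.97 CPM in parental against 0.113, 0.549 and 0.298 CPM in 1E7 (-2.78 ± 0.50, adjusted p = 0.0226, 5 of 9 fits). The circadian clock had Bhlhe40 higher of 21 (0.75 ± 0.18, 2 of 9). Autophagy had Map1lc3b, which encodes the autophagosome protein LC3B (0.76 ± 0.16, 2 of 9), and Wipi1 (1.08 ± 0.24, 1 of 9) higher of 37. Mucins and glycan-modifying enzymes had St6gal1, a sialyltransferase gene, higher of 36 (1.41 ± 0.24, 5 of 9).

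Markers of leukocytes, fibroblasts, endothelium and erythroid cells gave no call by edgeR. Of 17 tested leukocyte markers 13 had a positive estimate (median 0.93), 1 had an unadjusted p below 0.05 and DESeq2 called 0. S100a9, a gene of neutrophils, drew 452, 0 and 1 reads in parental against 660, 1092 and 500 in 1E7, and Ptprc, the gene of CD45, drew 72, 1 and 3 against 65, 135 and 63. Both were thus near the 1E7 counts in parental 1 and close to 0 in parental 2 and 3, while Cd3e was at 0 in every 1E7 library. The list also held 4 negative estimates, and not all markers were near 0 in parental 3. Cd68 drew 166, 96 and 285 reads in parental against 98, 162 and 69 in 1E7. Cd74 drew 73, 15 and 170 against 33, 52 and 26. The S100 family, which holds S100a9, had 0 of 14 called by edgeR, 1 at an unadjusted p below 0.05 and 1 lower by DESeq2 (S100a14). Fibroblast markers summed to 103, 95.9 and 89.6 CPM in parental and 155, 79.6 and 133 in 1E7. Most of this sum was Pdgfrb, the gene of a receptor for platelet-derived growth factor. It stood at 58.5, 67.2 and 45.6 CPM in parental against 110.4, 47.8 and 93.9 CPM in 1E7. Other members were present too. Col1a1 drew 388, 328 and 449 reads in parental against 347, 540 and 111 in 1E7. Acta2 drew 458, 165 and 437 against 43, 164 and 232, and Pdgfra 271, 237 and 408 against 324, 578 and 482. Dcn, Lum and Fap drew at most 21, 10 and 2 reads in any of these libraries. The fibroblast list had 0 of 9 called by edgeR, 2 at an unadjusted p below 0.05 and 0 by DESeq2. Endothelial markers had 0 of 7 called by edgeR, 1 at an unadjusted p below 0.05 and Egfl7 lower by DESeq2, and erythroid markers had 0 of 2 by either tool, also without adjustment. Fewer cells of a type and less RNA per cell cannot be told apart in such bulk samples.

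Called genes tended to lie beside called genes of the same direction. Of the tested genes next to a higher gene, 9.64% were higher too, against 2.54% of all genes, and of those next to a lower gene 9.20% were lower, against 2.87%. This made 31 pairs of adjacent higher genes and 34 pairs of adjacent lower genes. Beside Dysf with Cyp26b1, Oas1g with Oas1a and P3h4 with Fkbp10, 2 further pairs were chosen after their values were seen. Cyp39a1 lies next to Rcan2, a gene of a calcineurin regulator, which changed by 2.26 ± 0.46 (2 of 9 fits), with 50419 bases between them. The matrix gene Fbln2 (-2.53 ± 0.40, 6 of 9) lies 91440 bases from the Wnt ligand gene Wnt7a (-3.69 ± 0.64, 6 of 9). The share of called genes ran from 2.27% on chromosome 17 and 2.33% on chromosome 12 to 11.5% on chromosome 16 and 11.9% on chromosome 7, where most calls were lower. On chromosomes 8 (9.53%) and 14 (7.72%) most were higher. The median log2 fold change of all genes tested was -0.45 on chromosome 7, -0.37 on 16, 0.31 on 8 and 0.29 on 14. Named genes with changes under 1 in size lay there too. Slc1a5, Kmt2b, Rps16 and Rpl18 on 7 and Umps on 16 were lower. Insr, Ikbkb, Tpm4 and Map1lc3b on 8 and Ndst2, Pbrm1, Ctsb, Tnfrsf10b and Tpt1 on 14 were higher. Acsl1 on 8 went against its chromosome's median. What these medians add to the values of single genes there was not tested. Calls gathered on some chromosomes, with 10.7% of genes lower on chromosome 7 and 8.52% higher on chromosome 8. The shares over all genes do not allow for this, so adjacency and shifts of whole chromosomes were not told apart. In either case the values of genes on 1 chromosome are not to be taken as independent.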

How the data were processed

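Poly(A) RNA of 9 libraries was sequenced, and 3 libraries of clone 1E7 were compared with 3 of parental Panc02. Raw counts per gene were deposited by the authors, without normalization, for each sample and for the series, and these tables differed in 0 cells. STAR 2.5.2b (genome GRCm38) and featureCounts from Subread 1.5.2 had been used, per the submitters' processing notes. For the annotation release and the strand setting, the entry is "not given in the sources used here". Libraries were made with NEBNext Ultra II reagents, per the labels' protocols, and antisense or overlapping genes and near-identical copies may share reads. The 92 spike-in controls (0.344% to 0.820% of counts) were excluded from library sizes, and 174 of 49671 genes had no symbol.

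All 9 libraries entered 1 fit in R 4.3.3 with edgeR 4.0.16. Counts were scaled by TMM, genes were filtered by group with filterByExpr, and 1E7 was compared with parental by the robust quasi-likelihood F-test. P-values were adjusted by Benjamini-Hochberg over the 15766 genes tested and called at 0.05. CPM use TMM-scaled library sizes, and intervals of pooled counts are exact Poisson intervals for counting error only, at 95%. The fitting procedure was tested on simulated data. An exact permutation test of 3 against 3 cannot go below p = 0.1, so genes were tested only in this model. Libraries of a group differed by 20.6 to 765 in chi-square per gene, and each was counted separately. Promoter windows were matched to RefSeq by symbol.

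The comparison, the 41 gene lists and the rule for named genes were chosen with earlier results of these data known. Named genes were the 12 largest called rises and falls with a mean of at least 5 CPM in the higher group, no overlap and a gene name. To these were added the 6 called genes in each direction with the largest difference in CPM and genes going from under 0.5 to at least 2 CPM or back. The rule also took the 8 genes in each direction with the smallest p-values among those called in all leave-one-out fits, called list members and the VIP and PACAP system. Some genes that met the rule, with 2 of the lists, are not reported here. Alternatives were DESeq2 1.42.0, its size factors, no filter, the 6 libraries alone, a replicate block, a term for the word NSG, in the column names of replicate 3 of each group and of unstated meaning, a term for the date or that word, no robust option, no ribosomal RNA genes, and leaving out libraries or replicate numbers.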

Additional observations from a re-analysis of the deposited data

How the results depend on the processing

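The direction of all 120 named calls held under the 23 alternatives, and the number of calls did not. Against 401 higher and 453 lower genes, DESeq2 called 944 and 1092, which included all 854, and a term for the word NSG gave 956 and 1104. Without the filter on low counts there were 275 and 271. Fits that left out 1 library called 16 to 953 higher and 8 to 1045 lower genes, with the lowest counts without 1E7 3 and the highest without 1G2 3. The counts were 0 and 0 by edgeR without replicate 1 of each group (1589 genes at an unadjusted p below 0.05), 17 and 61 without replicate 2 and 830 and 907 without replicate 3. Settings chosen after seeing the data left out parental 3 and 1G2 3 (1540 and 1790) and also 1E7 2 (1983 and 2440), or added a term for the date or word in the column names (815 and 1040), in which 1E7 2 has a date of its own and so does not bear on the comparison. The cause of these differences was not tested. DESeq2 size factors, the fit without the robust option, the 6 libraries alone and the fit without ribosomal RNA genes stayed within 1.5 times the counts.

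With the replicate number as a block, 589 higher and 709 lower genes were called. The numbers are not known to pair the libraries: replicates 1 of the 2 groups share a date in the column names and replicates 3 the word NSG, whereas replicates 2 differ in date, and same-numbered libraries of the 2 groups deviated together with correlations of -0.003, 0.056 and 0.153. Replicate 1 of 1E7 correlated best with parental 2, at 0.027, and replicate 2 of 1E7 with parental 1, at 0.096.

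Vipr2 was not called in any setting, and it was too low to be tested with the 6 libraries alone, without replicate 2 or 3, and with parental 3 and 1G2 3 left out. Ramp3, not called, changed its log2 estimate from -0.20 to 0.080 without 1E7 replicate 3, and to -0.43 without replicate 1. Depth limited what could be said of genes with few reads, such as Vipr2 and Vip.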

Other observations

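The genes called without 1 replicate number of each group were read in the libraries of that number, which the fit had not used. Without replicate 2, 17 higher and 61 lower genes were called, and in 1E7 2 against parental 2 all 17 were higher and 59 of the 61 lower (96.7%). Their median log2 difference there was 1.96 for the higher and -1.29 for the lower genes, against 3.06 and -4.29 in the fit. Without replicate 3, 830 higher and 907 lower genes were called, and 768 (92.5%) and 804 (88.6%) went the same way in 1E7 3 against parental 3, with medians of 0.89 and -0.64. Without replicate 1 edgeR called 0 genes, with 1589 at an unadjusted p below 0.05, so libraries numbered 1 could not be read in this way. The left-out libraries came from the same clone and line, so agreement in direction was likely beforehand. The replicate numbers are not known to pair the libraries, and the agreement over all genes tested was not counted. These shares are therefore no independent check of the calls and do not bear on what made the clone and the line differ.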
